A study of Rattus norvegicus with 18 samples.

Results

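Aggrecan (Acan), cartilage oligomeric matrix protein (Comp) and 4 small leucine-rich proteoglycans, fibromodulin (Fmod), decorin (Dcn), biglycan (Bgn) and lumican (Lum), were followed in the femora of young, adult and older rats after fracture. The genes were chosen by name, and all 6 were measured, by 11 of the 8740 probe sets tested (4736 genes had a probe set with a single gene symbol). Decorin had 4 probe sets, fibromodulin and biglycan had 2 each, and the others had 1 each. The brightest probe set over all arrays stands for a gene unless another is named.

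Aggrecan carries chondroitin and keratan sulfate chains and binds hyaluronan, which fills cartilage with water and gives it stiffness under load. Comp, a pentameric protein of the thrombospondin family, and the small leucine-rich proteoglycans bind collagen and shape its fibrils in cartilage, tendon, bone and skin. Decorin and biglycan carry chondroitin or dermatan sulfate chains, and fibromodulin and lumican carry keratan sulfate. In a healing fracture, a soft callus of cartilage and fibrous tissue forms first and is then replaced by bone.

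Closed mid-shaft fractures of the femur, held by an intramedullary rod, were made in intact female Sprague-Dawley rats that were young (6 weeks of age), adult (26 weeks) or older (52 weeks). The fractured rats were sampled in the first days (0.4 weeks, given as 3 days in the labels), at 1 and 2 weeks and at 4 and 6 weeks, and unfractured rats of each age were the 0 time controls, which the methods call sham controls. The central part of the femur was taken, with callus, cortex and marrow, and RNA of 2 rats was pooled for each Affymetrix Rat U34A array. These are the arrays of series 3, 18 in number, 1 for each age at each time. In the tests over time the 3 ages were therefore the replicates of a time point (n = 3 at each time), and a p-value measures the spread between pools of different age. In the comparisons between ages the weeks were the replicates of an age, and a p-value measures the spread between weeks. A gene can be lower in such a sample because fewer cells expressed it or because each cell held less of its mRNA, and these cannot be told apart.

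Signals are in arbitrary units of fluorescence. Each array had a trimmed mean signal close to 501 and a median signal between 149.4 and 187.7, and correlations between pairs of arrays over all probe sets were 0.816 to 0.978. The ratio of the 3′ to the 5′ control probe sets of Gapdh, which rises as RNA is degraded, was 1.15 to 1.83 on 16 arrays, 3.48 on the young 4-week array and 6.57 on the young 6-week array. The labelled tissue was checked against cell markers. Chondrocyte markers (5 of 11 listed were measured, the collagens II, IX, X and XI among them) had mean log2 signals of 9.88 to 10.42 at 2 weeks, against 5.40 to 7.54 in the 0 time controls. At 0.4 weeks they were at 6.76 to 7.41, within the range of these controls, and at 1 week at 9.19 to 9.84. Osteoblast markers (8 of 10 measured) had mean log2 signals of 12.70 to 13.38 at 2 weeks, against 10.09 to 12.65 in the 0 time controls.

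All 6 genes were up-regulated by fracture at 1 and 2 weeks. Aggrecan and Comp changed most, by 33.6-fold and 15.1-fold at 1 week, and the 4 small leucine-rich proteoglycans rose between 3.19-fold and 5.43-fold. Of the 18 courses of a gene at an age, 10 were highest at 1 week, 7 at 2 weeks and 1 at 0.4 weeks. By the brightest probe sets, the ages lay close together for all 6 genes at 0.4 and 1 week, and apart in the unfractured bone for all but Comp. Other cell markers moved at the same time. At 1 week, 6 of 6 erythroid markers were lower than at 0 time (median log2 change -3.66), as were 5 of 6 granulocyte markers (-3.15) and 8 of 9 skeletal muscle markers (-1.52), where 20.4% of all probe sets were called lower. Fibroblast and tendon markers were higher for 7 of 8 (median log2 change 2.24). At 2 weeks 5 of 6 erythroid, 4 of 6 granulocyte and 0 of 9 muscle markers were called lower by limma (10.3% of all), and 6 muscle markers were lower at an unadjusted p of 0.05. The arrays were scaled to a common average, and the part of these cells in the changes was not tested.

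Aggrecan is the large proteoglycan of cartilage. Its signal in young rats was 520.8, 1371.8, 2411.6, 1081.8, 370.7 and 22.3 from 0 time to 6 weeks, at the 6 times in order. In adult rats it was 30.7, 1652.5, 2301.9, 1617.6, 128.2 and 311.9 over the same times. In older rats it was 18.8, 1616.5, 2177.4, 1716.8, 708.7 and 570.4. Every array of 0.4, 1 and 2 weeks lay above every 0 time control, but at 4 and 6 weeks the groups overlapped. At 4 weeks 2 arrays lay under the young control (520.8), and at 6 weeks the young array (22.3) lay under the adult control (30.7) as well. The 3 ages fell within a 1.11-fold range at 1 week, whereas the controls and the 6-week arrays spanned 26.0-fold and 25.6-fold. The change at 1 week was 33.6-fold (SE 1.30 around a log2 change of 5.07, adjusted p = 0.0136). The older control (18.8) lay just under the floor of 20 to which low signals were set, and the adult control (30.7) lay near it. Above these controls the peak was 109-fold in older and 75.0-fold in adult rats, against 4.63-fold in young rats. The fold change over the ages therefore depends on controls near the floor.

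Comp catalyses the assembly of collagen fibrils and is a marker of cartilage and tendon. Young rats had Comp signals of 83.8, 527.5, 1806.4, 1499.8, 302.1 and 121.3 over the 6 times. Adult rats had 121.4, 557.2, 1173.2, 1893.5, 456.6 and 585.4. Older rats had 97.6, 604.3, 1608.0, 2118.0, 847.4 and 872.6. Unlike the brightest probe sets of the other genes, that of Comp started from a similar low signal at every age, 101 ± 19.0 (SD, n = 3). Of the 6 brightest probe sets it had the smallest spread in the controls, 1.45-fold. At 2 weeks its signal was 1837 ± 313, an 18.2-fold change (log2 change 4.19, SE 0.49, adjusted p = 0.00266). All arrays up to 4 weeks after fracture lay above the controls, and at 6 weeks the young array (121.3) fell just below the highest control.

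Fibromodulin, which guides the growth of collagen fibrils, followed a course like that of aggrecan with a narrower range. Its signals in young rats were 798.9, 1894.5, 2436.0, 925.4, 635.4 and 609.7 from 0 to 6 weeks. Those in adult rats were 563.0, 2568.2, 3097.1, 1817.1, 637.2 and 845.5. Those in older rats were 346.2, 2374.7, 3308.2, 2538.4, 1762.0 and 1049.1. All 3 ages were highest at 1 week, and at 2 weeks the signal was 2538.4 in older rats, against 925.4 in young rats. The change from 0 time was 5.43-fold at 1 week (log2 change 2.44, SE 0.42, adjusted p = 0.00242).

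Decorin, which binds the surface of collagen fibrils and holds transforming growth factor beta, had the brightest lead probe set of the 6. Its signals in young rats were 9110.4, 10773.3, 12627.4, 11183.9, 8585.3 and 6154.5. In adult rats they were 3128.7, 7559.2, 13749.2, 14828.7, 6636.6 and 8916.0. In older rats they were 1369.3, 8357.5, 11486.3, 12438.5, 8394.2 and 10928.6. Young bone without fracture already gave a signal above those of the adult and older rats at 0.4 weeks. From 1 week the ages overlapped, and decorin rose 3.71-fold at 1 week (log2 change 1.89, SE 0.49, adjusted p = 0.0145) and 3.75-fold at 2 weeks (adjusted p = 0.0249).

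Biglycan, a relative of decorin, is abundant in bone matrix. Young rats had signals of 5140.7, 7698.4, 7234.9, 7545.9, 4211.2 and 3956.8. Adult rats had 1790.5, 6627.9, 8035.4, 9210.9, 3899.8 and 5351.1. Older rats had 1796.3, 6423.2, 9236.0, 9621.3, 6185.5 and 5595.0. The adult and older controls were almost equal, and the young control was 2.86-fold above the older one. The change was largest at 2 weeks, 3.43-fold (log2 change 1.78, SE 0.35, adjusted p = 0.0105).

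Lumican, a keratan sulfate proteoglycan of fibrous tissue, gave signals of 4476.5, 5664.6, 5579.4, 6620.0, 4815.9 and 4058.2 in young rats. The adult rats had 1748.2, 5712.2, 7253.5, 4309.0, 2189.0 and 4240.7. The older rats had 577.2, 5199.7, 6806.8, 5266.5, 5160.6 and 4840.7. The young course was nearly flat, with a peak 1.48-fold above its control, whereas the peak of the older rats was 11.8-fold above theirs. Over the 3 ages the change was 3.94-fold at 1 week (log2 change 1.98, SE 0.54, adjusted p = 0.0176) and 3.22-fold at 2 weeks (adjusted p = 0.0493), where the lowest array (adult, 4309.0) lay under the young control.

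**Figure D1:**
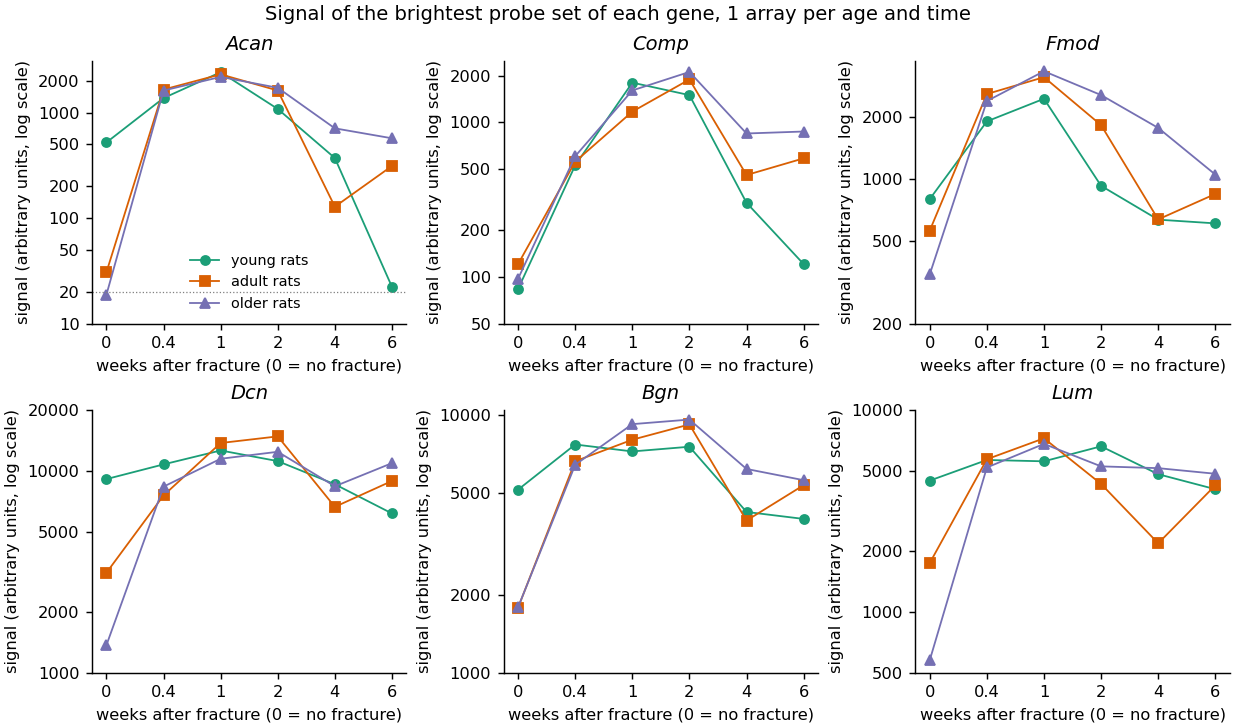
Signal (arbitrary units of fluorescence, log scale) of the brightest probe set of each gene by time after fracture in weeks. Each point is an array and each line an age (0 = no fracture, times evenly spaced, dotted line at the floor of 20). The ages lie together at 0.4 and 1 week, and the young control is the highest of the 3 controls for every gene except Comp.

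The tests over time asked which genes differed from the 0 time controls over the 3 ages, by limma with p-values adjusted by the Benjamini-Hochberg method over the 8740 probe sets. The F test over the 5 later weeks called 4 of the 6 genes, Comp (adjusted p = 0.00196), fibromodulin (0.00894), biglycan (0.0212) and aggrecan (0.0480), where 26.4% of all probe sets were called. Decorin (adjusted p = 0.0783) and lumican (0.105) were not called. At 0.4 weeks 5 genes were higher than at 0 time (14.1% of all probe sets), led by aggrecan (22.5-fold, adjusted p = 0.0242) and Comp (5.63-fold, 0.00390), and decorin was not called (2.59-fold, 0.0546). All 6 genes were higher at 1 week (14.6% of all) and at 2 weeks (9.49% of all). At 4 weeks Comp alone was called (4.90-fold, log2 change 2.29, SE 0.49, adjusted p = 0.0316), where 3.31% of all probe sets were. At 6 weeks none was called (4 passed an unadjusted p of 0.05), where 0.561% of all were, and Comp was 3.97-fold above 0 time (adjusted p = 0.0753). No gene of the 6 was called lower than the controls at any time. Their median log2 change was 1.91, 2.21, 1.84, 1.20 and 1.26 over the 5 later times in order, and the median over all probe sets was -0.13, -0.13, -0.13, -0.04 and -0.06.

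The counts of genes called higher at 0.4, 1 and 2 weeks fell when either adult or older rats were left out. Leaving out young rats lowered none of them, and more of the 6 genes were then called at 4 and 6 weeks. Without the adult arrays, limma called 0, 1 and 0 of the 6 genes higher at 0.4, 1 and 2 weeks, and 2, 3 and 2 passed an unadjusted p of 0.05. Of all probe sets it called 148, 156 and 0 higher, against 1229, 1273 and 829 with all 3 ages. Without the older arrays, it called 1, 2 and 0 of the 6 (263, 115 and 7 of all probe sets), and 3, 6 and 4 passed an unadjusted p of 0.05. Without the young arrays, it called 6 at each of these times and 4 at 4 and at 6 weeks, aggrecan, Comp, decorin and biglycan. Of all probe sets 1282, 1270, 1050, 725 and 680 were called higher over the 5 later times there. Counted by array, all 3 arrays lay above all 3 controls for 5, 6, 5, 1 and 0 of the 6 genes over the later times in order, and for 17.4%, 17.2%, 13.8%, 9.76% and 6.68% of all probe sets.

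**Figure D2:**
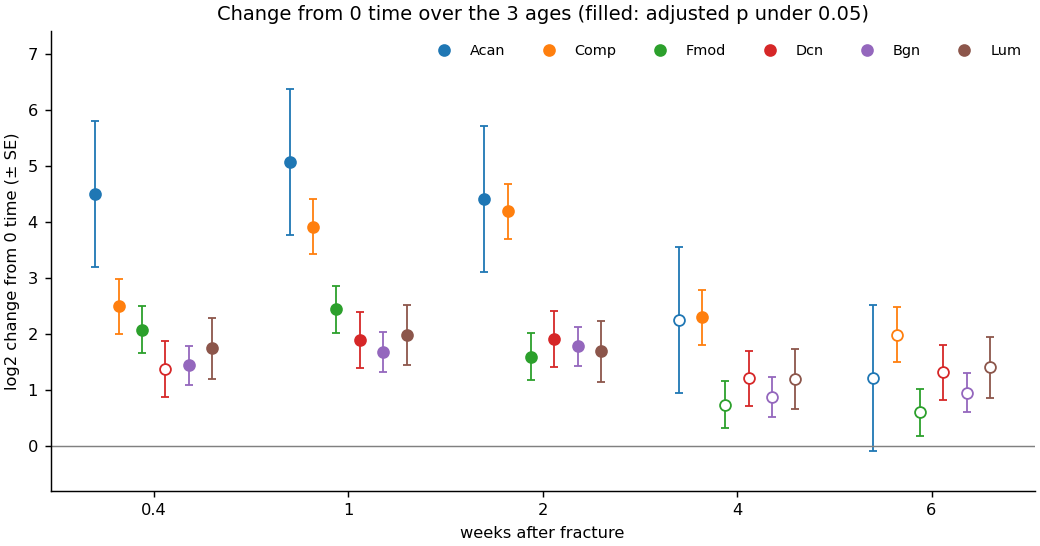
Log2 change from 0 time with its SE, from limma over the 3 ages, against weeks after fracture, with filled points where the adjusted p is under 0.05. Aggrecan and Comp lie highest up to 2 weeks, and Comp alone is filled at 4 weeks.

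The further probe sets of a gene followed its lead probe set, with correlations of 0.844 to 0.960 over the 18 arrays, which share the course of healing. At 1 week all 5 were higher than at 0 time. The 3 further probe sets of decorin rose 3.15-fold, 3.73-fold and 8.39-fold, and those of fibromodulin and biglycan rose 4.44-fold and 5.62-fold. At 0.4 weeks all 3 further probe sets of decorin were called (adjusted p = 0.0410, 0.0476 and 0.00780), in contrast to its lead probe set. At 2 weeks one of them was not called (adjusted p = 0.0526). The one that rose 8.39-fold was also called at 4 weeks (3.95-fold, adjusted p = 0.0316) and by the F test (adjusted p = 0.00716). The lead and the other further probe sets of decorin were called in neither. At 6 weeks the further probe set of fibromodulin gave 104.9, 113.8 and 260.7 in young, adult and older rats, against 189.4, 218.7 and 186.2 at 0 time, so young and adult rats were under their own controls. Its change over the ages was not called (log2 change -0.44, SE 0.34, adjusted p = 0.484).

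The windows around the transcription start are shown because the genes moved together, and they let a reader compare the starts of the cartilage genes with those of the leucine-rich genes. Each runs from 250 bases before to 50 bases after a start in RefSeq (assembly GRCr8), and the table used here held windows for 4 of the 6 genes, Acan, Comp, Fmod and Lum. For Acan, Comp and Fmod this start is the start of the annotated gene. The Lum window lies inside the annotated gene, which begins at base 34245323, so its start is a later one. Capitals mark matches, on either strand, to 5 motifs, named SOX, RUNX, AP-1, TATA box and SP1 and spelled out after the windows.
Acan, chr1:142390701-142391000, plus strand: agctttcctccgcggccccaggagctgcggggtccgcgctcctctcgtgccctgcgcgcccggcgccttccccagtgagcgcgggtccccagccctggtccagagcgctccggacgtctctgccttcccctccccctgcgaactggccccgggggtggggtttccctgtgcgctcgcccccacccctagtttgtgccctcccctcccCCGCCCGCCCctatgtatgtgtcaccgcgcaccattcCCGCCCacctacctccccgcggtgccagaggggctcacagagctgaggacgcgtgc
Comp, chr16:19089499-19089798, minus strand: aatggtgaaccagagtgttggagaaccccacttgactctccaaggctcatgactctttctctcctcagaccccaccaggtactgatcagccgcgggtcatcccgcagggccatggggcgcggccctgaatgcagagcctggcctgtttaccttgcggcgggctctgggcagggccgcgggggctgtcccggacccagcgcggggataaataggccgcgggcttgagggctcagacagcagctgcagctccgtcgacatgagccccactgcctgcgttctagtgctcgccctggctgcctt
Fmod, chr13:48045317-48045616, plus strand: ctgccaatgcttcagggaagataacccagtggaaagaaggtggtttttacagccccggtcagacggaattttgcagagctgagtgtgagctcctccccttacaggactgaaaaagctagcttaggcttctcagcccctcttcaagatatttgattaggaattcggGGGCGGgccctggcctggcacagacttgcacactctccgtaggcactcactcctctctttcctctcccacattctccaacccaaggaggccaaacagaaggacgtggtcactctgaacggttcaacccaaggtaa
Lum, chr7:34245456-34245755, plus strand: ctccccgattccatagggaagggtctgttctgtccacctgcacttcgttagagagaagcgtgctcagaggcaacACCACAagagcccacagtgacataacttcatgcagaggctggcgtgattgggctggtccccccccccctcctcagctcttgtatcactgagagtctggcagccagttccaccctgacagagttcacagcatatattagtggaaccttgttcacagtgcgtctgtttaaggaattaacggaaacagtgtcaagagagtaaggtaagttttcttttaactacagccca
The Acan and Comp windows were rich in G and C (73.0% and 64.7%) and those of Fmod (52.7%) and Lum (50.7%) were near the median of 33469 windows (51.7%). The SP1 motif was searched as GGGCGG and lay in 33.1% of all windows. Acan had 3 such matches, all on the minus strand, which began 43, 39 and 6 bases before the start, and the first of these shared bases with the next. Fmod had 1 on the plus strand, 85 bases before the start. The RUNX motif, searched as TGTGGT, lay in 17.3% of all windows. Lum had 1 such match, on the minus strand and 176 bases before the start of its window's count, which is inside the annotated gene. The SOX motif was searched as AACAAT and lay in 11.7% of all windows, but in none of the 4 shown here. The same held for the AP-1 motif, searched as TGANTCA and found in 7.33% of all windows. It held as well for the TATA box, searched as TATAAA and found in 14.2% of them. Comp had a match to none of the 5. A match describes letters only. Dcn and Lum are neighbours on chromosome 7 with 0 annotated genes between them.

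By the brightest probe sets, the cartilage genes came down most from 2 to 6 weeks. Averaged over the ages, aggrecan fell by 3.19 on the log2 scale (SE 1.30, adjusted p = 0.251) and Comp fell by 2.20 (SE 0.49, adjusted p = 0.0536), neither of which passed the threshold. The log2 change from 2 to 6 weeks was -0.99 for fibromodulin, -0.83 for biglycan, -0.59 for decorin and -0.28 for lumican. The second probe set of biglycan fell by 2.02 (SE 0.55, adjusted p = 0.101), near the fall of Comp. That of fibromodulin fell by 1.57 (SE 0.34, adjusted p = 0.0503), and the further probe sets of decorin changed by -0.50, -0.28 and -0.05. Thus 0 of 6 genes were called lower at 6 than at 2 weeks by limma (4 passed an unadjusted p of 0.05), where 0.572% of all probe sets were. As a share of the peak of the brightest probe set, the level left at 6 weeks was lowest in young rats for 5 of the 6 genes. This was not counted over all probe sets. By further probe sets decorin was lower in adult rats, at 1445.6 of a peak of 4233.3 and 1119.1 of 3309.5. Young rats had 2804.4 of 4804.1 and 1435.2 of 3064.8 there. The remaining one was lower in young rats, with 2331.1 of 4620.7 against 3025.8 of 4258.8 in adult rats. In young rats aggrecan at 6 weeks (22.3, close to the floor of 20) was 0.925% of its peak, in adult rats 13.5% and in older rats 26.2%. Comp was at 6.72%, 30.9% and 41.2% of its peak at these ages, and decorin at 48.7%, 60.1% and 87.9%. Fibromodulin was at 25.0%, 27.3% and 31.7%, biglycan at 51.4%, 58.1% and 58.2%, and lumican at 61.3%, 58.5% and 71.1% in young, adult and older rats, a narrower range. The second probe set of biglycan left a wider range than its first. It gave 183.5, 398.5 and 1002.5 at 6 weeks at these ages, against peaks of 1739.9, 1789.1 and 2604. The young 6-week array was the one with the highest 3′ to 5′ ratio of Gapdh (6.57), and the part of RNA quality in these levels was not tested.

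By the brightest probe sets, the spread between the ages was wide in unfractured bone for all genes but Comp. It was narrow at 0.4 and 1 week, and above 2-fold at both 4 and 6 weeks for aggrecan and Comp. At 4 weeks it was above 2-fold for fibromodulin (2.77-fold, and 2.74-fold at 2 weeks) and lumican (2.36-fold) too. At 0 time the highest of the 3 ages was 1.45-fold to 26.0-fold above the lowest, with a median over the 6 genes of 4.76-fold, against 1.76-fold over the 4108 probe sets whose mean signal reached 200. The older rats were lowest for 4 of the 6 genes there, and for 28.5% of those 4108 probe sets. At 0.4 weeks the spread was 1.10-fold to 1.43-fold and at 1 week 1.11-fold to 1.54-fold, so that 6 of 6 genes lay within 2-fold at both times, as did 91.5% and 89.1% of the 4108. At 4 weeks 2 of 6 lay within 2-fold (85.8% of the 4108), and at 6 weeks 4 of 6 (81.9%). At 6 weeks the young rats, whose array had the highest 3′ to 5′ ratio of Gapdh, were lowest for all 6 genes and for 40% of the 4108. Older rats were above young rats for all 6 at that time (49.7% of the 4108), and for 1 of 6 at 0 time (50%). The further probe set of fibromodulin spanned only 1.17-fold in the controls, 2.23-fold at 1 week, and 3.54-fold and 2.49-fold at 4 and 6 weeks. That of biglycan spanned 2.09-fold in the controls, 2.14-fold at 0.4 weeks, and 3.72-fold and 5.46-fold at 4 and 6 weeks. Those of decorin spanned 5.27-fold to 6.14-fold in the controls.

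**Figure D3:**
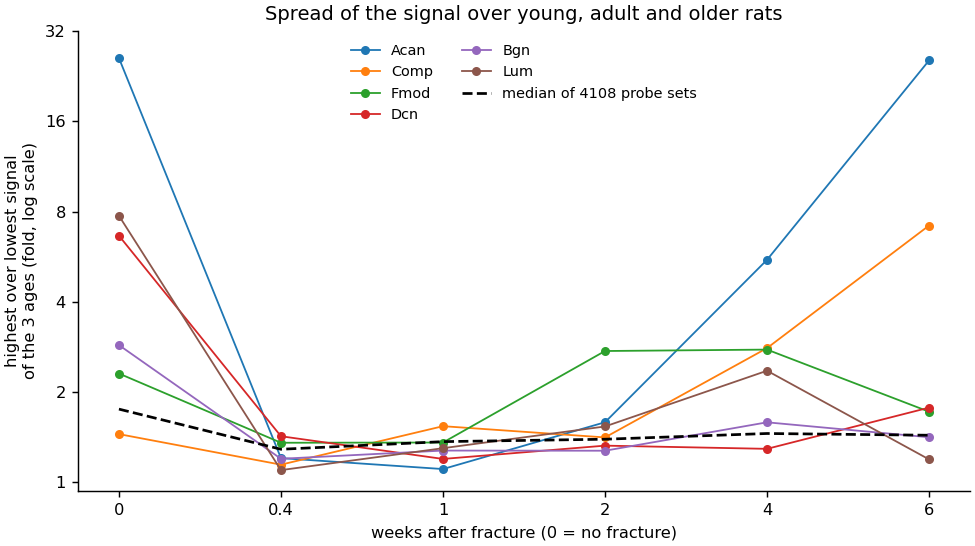
Highest over lowest signal of the 3 ages (fold, log scale) for the brightest probe set of each gene against weeks after fracture, with the median of 4108 probe sets as a dashed line. The genes lie at 1.10-fold to 1.54-fold at 0.4 and 1 week, and aggrecan is at 26.0-fold in the controls and 25.6-fold at 6 weeks.

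The response of each age was then set against its own 0 time control. Decorin, biglycan and lumican changed more in older than in young rats. Over the 5 later weeks the change of lumican was 7.96-fold larger in older than in young rats (difference in log2 change 2.99, SE 0.52, adjusted p = 0.00954), that of decorin 7.08-fold (2.82, SE 0.43, adjusted p = 0.00498) and that of biglycan 3.52-fold (1.82, SE 0.31, adjusted p = 0.00878). Limited to the 4108 probe sets whose mean signal reached 200, the test called 5 of 6 genes and 267 probe sets. With all probe sets it called the 3 of 6 genes given above, and 3.57% of all in this direction. Fibromodulin (4.29-fold, adjusted p = 0.0517), aggrecan (63.0-fold, adjusted p = 0.0890) and Comp (1.68-fold, adjusted p = 0.749) were not called. All 4 probe sets of decorin were called (adjusted p = 0.00287 to 0.0218), but the second probe set of biglycan was not (4.06-fold, adjusted p = 0.263), nor was biglycan with the mean of its probe sets (log2 difference 1.92, adjusted p = 0.0923). Between adult and young rats biglycan alone was called (3.10-fold, log2 difference 1.63, SE 0.31, adjusted p = 0.0144, with 2.57% of all probe sets called), and between older and adult rats limma called 0 of 6 (2 passed an unadjusted p of 0.05, and lumican had an adjusted p of 0.0984), with 2.56% of all probe sets called higher. Each age had 1 control array, so the spread among controls of an age was not measured, and the SE assumes that it equals that of the fractured arrays.

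Nearly all of the difference for lumican and decorin lay in the 0 time controls, of which each age had 1. On the log2 scale, older minus young in the controls was -2.96 for lumican, -2.73 for decorin and -1.52 for biglycan, and over the 5 later weeks it was 0.037, 0.089 and 0.30. The lumican signal of the controls was 577.2 in older and 4476.5 in young rats, and at 6 weeks it was 4840.7 in older and 4058.2 in young rats. For decorin, the controls gave 1369.3 in older and 9110.4 in young rats, and the 6-week arrays gave 10928.6 in older and 6154.5 in young rats. At 6 weeks decorin was thus 7.98-fold and lumican 8.39-fold above the own control in older rats, against 0.676-fold and 0.907-fold in young rats. The low controls of older rats held for the osteoblast and the fibroblast and tendon markers too. The mean log2 signal of the osteoblast markers (8 of 10 measured) was 10.09 in the older and 12.65 in the young control, and that of the fibroblast and tendon markers (8 of 10 measured, no member of the 6 among them) was 9.26 in the older and 12.24 in the young control. Skeletal muscle markers (9 of 12 measured) were at 14.11 in the older and 13.62 in the young control. The part of these cells in the differences between ages was not tested.

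**Figure D4:**
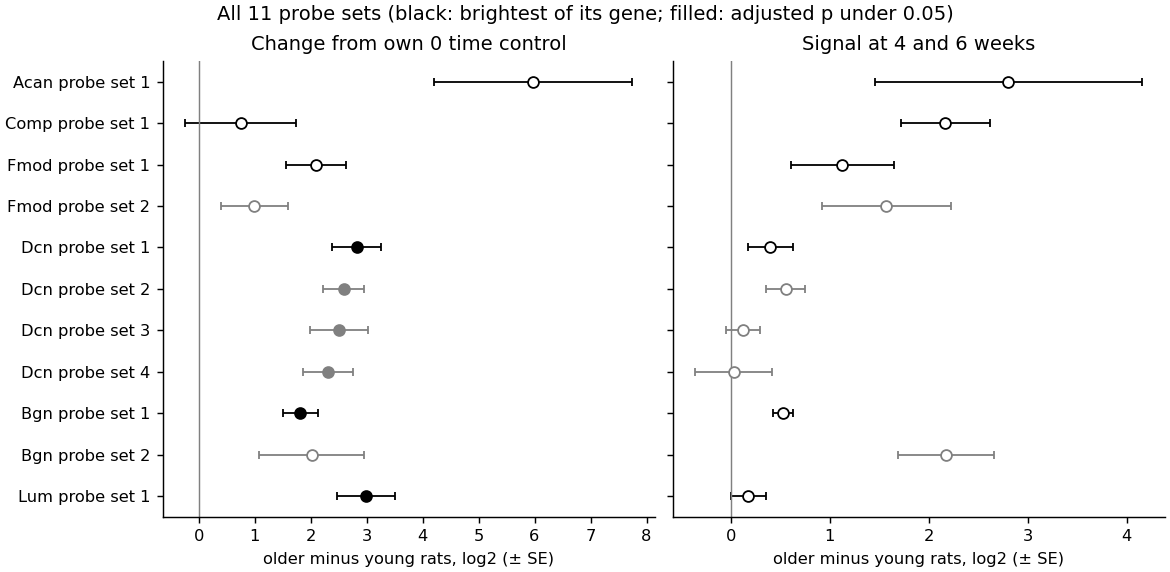
Older minus young rats on the log2 scale with SE, for all 11 probe sets (probe set 1 is the brightest of its gene), in the change from the own 0 time control (left) and in the signal at 4 and 6 weeks (right). On the left the 4 decorin probe sets, the first of biglycan and lumican are filled (adjusted p under 0.05), and on the right none is.

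Older and young rats were also compared directly after fracture, in the early phase (1 and 2 weeks) and the late phase (4 and 6 weeks), as in the methods of the study. The weeks of a phase were the replicates of an age here, so an SE measures the spread between weeks and not between pools of the same week. At 1 and 2 weeks 0 of 6 genes were called higher in older rats by limma (1, biglycan, passed an unadjusted p of 0.05), where 0.0114% of all probe sets were. Folds of older over young rats at that time were 0.985 to 1.93. At 4 and 6 weeks Comp was 4.49-fold higher in older rats (log2 difference 2.17, SE 0.45) with an adjusted p of 0.186, aggrecan was 6.99-fold higher (2.81, SE 1.35, adjusted p = 0.538) and biglycan 1.44-fold (0.53, SE 0.10, adjusted p = 0.174). Hence 0 of 6 were called in the late phase (2, Comp and biglycan, passed an unadjusted p of 0.05), where 0.0458% of all probe sets were. The second probe set of biglycan differed more than the first, 4.51-fold (log2 difference 2.17, SE 0.48, adjusted p = 0.208). Its signals at 4 and 6 weeks were 1535.4 and 1002.5 in older rats, against 412.6 and 183.5 in young rats.

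The late difference minus the early difference was called for 0 of 6 genes (1, Comp, passed an unadjusted p of 0.05, log2 2.00, SE 0.64, adjusted p = 0.748), with 0.0% of all probe sets called higher. Over all 5 later weeks older rats were above young rats by 1.86-fold for fibromodulin (adjusted p = 0.193), 1.96-fold for Comp (0.364) and 1.23-fold for biglycan (0.378). None of the 6 was called there (3 passed an unadjusted p of 0.05), and 0.0% of all probe sets were. The young 4- and 6-week arrays had the highest 3′ to 5′ ratios of Gapdh (3.48 and 6.57) and of Actb (2.29 and 3.06, against 1.08 to 2.12 on the others). Chondrocyte markers at 6 weeks had a mean log2 signal of 8.15 in older and 6.74 in young rats, and at 4 weeks 8.79 in older and 8.72 in young rats. Marrow markers had lower mean signals in older rats. Granulocyte markers (6 measured) had a mean log2 signal of 8.44 in older and 10.38 in young rats at 6 weeks, and 7.76 in older and 9.71 in young rats at 4 weeks, and erythroid markers (6 measured) had 11.18 in older and 12.26 in young rats at 6 weeks. Over both weeks the median log2 difference, older minus young, was -1.91 for the granulocyte and -0.86 for the erythroid markers, with 0 of 6 called in each list by limma (3 and 0 were lower at an unadjusted p of 0.05). The part of RNA quality, cartilage content and marrow content in the late differences was not tested.

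Genes that act with these proteoglycans were counted at 2 weeks against 0 time, beside 9.49% of all probe sets called higher and 10.3% called lower. Of 5 measured hyaluronan-binding proteoglycans and link proteins 2 rose, versican (Vcan, 5.10-fold, adjusted p = 0.0164) and the hyaluronan receptor Cd44 (1.76-fold, 0.0190). Of 3 other small leucine-rich proteins, chondroadherin (Chad), which binds chondrocytes, rose 5.85-fold (adjusted p = 0.0302), and 2 were not called. Of 16 further proteoglycans 9 rose and 2 fell. The cell surface proteoglycans syndecan 1 (Sdc1, 8.43-fold, adjusted p = 0.0189) and glypican 6 (Gpc6, 5.0-fold, 0.0121) rose most. The proteoglycans of blood vessels and of blood cells, Esm1 and Srgn, fell by 2.20 and 2.06 on the log2 scale (adjusted p = 0.00363 and 0.0125). Of 8 measured enzymes of glycosaminoglycan synthesis 2 rose and 1 fell. Papss2, which makes the sulfate donor, rose 6.10-fold (adjusted p = 0.00985) and Xylt2, which starts the chain, 3.55-fold (0.0494), whereas Ndst1, a heparan sulfate sulfotransferase, fell by 1.26 (0.0373). Thbs4, the 1 measured gene of the other thrombospondins and matrilins, was not called (1.57-fold, adjusted p = 0.334).

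Among 16 measured proteases and inhibitors of matrix turnover 10 rose and 1 fell. Cathepsin K (Ctsk, 12.6-fold, adjusted p = 0.0117), the collagenase of osteoclasts, and collagenase 3 (Mmp13, 10.5-fold, 0.00447) rose most, cathepsin B (Ctsb) rose 2.03-fold (0.00538), and the neutrophil collagenase Mmp8 fell by 2.76 on the log2 scale (0.0106). Of 9 measured collagens 7 rose. Col10a1 of hypertrophic cartilage (124-fold, adjusted p = 0.00427) and Col2a1 of cartilage (72.1-fold, 0.00949) were highest. Col12a1 (3.48-fold, 0.0455) and the fibrillar Col3a1 (3.79-fold, 0.0475) were the lowest of those called. Of 11 growth factors and receptors that decorin or biglycan bind 2 rose, Tgfb3 (3.91-fold, adjusted p = 0.0299) and Tgfb1 (2.63-fold, 0.0128). Of 3 measured transcription factors of cartilage and bone, Dlx5 rose 2.75-fold (adjusted p = 0.0245) and Msx2 fell by 0.89 on the log2 scale (0.0270). The median log2 change was 2.56 for the collagens, 1.56 for the proteases, 1.03 for the further proteoglycans, 0.73 for the synthesis enzymes and 0.38 for the growth factors, beside 1.84 for the 6 genes and -0.13 for all probe sets.

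The genes whose courses were most like each of the 6 were ranked by Pearson r of the log2 signals over the 18 arrays, among 2583 genes whose mean signal reached 200. Those nearest to aggrecan were Lox (r = 0.959), which cross-links collagen, Ptms (0.953) and Pmepa1 (0.953). Nearest to Comp were Apoe (0.912), Gal (0.907) and fibronectin (Fn1, 0.903), and nearest to fibromodulin were Csrp2 (0.943), Rhob (0.942) and the collagen hydroxylase Plod1 (0.938). Decorin lay nearest to Fn1 (0.953), Fstl1 (0.948) and Aebp1 (0.947), biglycan to Plagl1 (0.965), Fn1 (0.953) and Myl6b (0.952), and lumican to bone sialoprotein (Ibsp, 0.949), Col3a1 (0.944) and Tmem47 (0.944). Among themselves the 6 genes correlated at 0.629 (Comp with lumican) to 0.919 (decorin with lumican). These correlations describe 18 arrays that share 1 time course, and by Spearman rank 4 of the 18 named neighbours stayed among the nearest 3.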

How the data were processed

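Values were deposited as intensity (linear signals) for 18 arrays, 1 column each, with no column left out. The authors computed them with Microarray Suite 5.0 from perfect match and mismatch probes and scaled each array to an average of 500, as the methods state. Detection calls were not analysed here. The 59 control probe sets were left out and 8740 tested. A single gene symbol was annotated to 7006, several to 308 and none to 1426, and for 6985 of the 7006 the current RefSeq gene table (GRCr8) held the identifier. Signals under 20 were set to 20, and log2 values were fitted with limma 3.58.1 in R 4.3.3, without further normalization, with an intensity trend and Benjamini-Hochberg adjustment at 0.05.

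Changes over time were fitted on 18 arrays with age and week as terms. Older and young rats were compared by age and phase on 8 arrays and over the 5 later weeks on 15, and the change from the own control on 18 arrays with week and age by fracture terms. Named were the 6 genes with all probe sets, for each the 3 genes most like it, and from each list the 2 highest and 2 lowest called changes at 2 weeks. The genes and lists were chosen with earlier results of these data known. Alternatives (24 settings) covered the floor, normalization, signal limit, trend, age term, probe sets, ages, weeks and arrays left out, and the methods' t-test. The number of arrays limits the precision. The fits were tested on simulated data. Plots were made with matplotlib 3.10.9 (Python 3.11.15).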

Additional observations from a re-analysis of the deposited data

Results flagged for a closer look

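The change from the own 0 time control differed between older and young rats, by the test of that difference in limma, for 6 of the 11 probe sets. In this direction 3.57% of the 8740 probe sets tested were called. For decorin the difference in log2 change, older minus young, was 2.82 for the brightest probe set (adjusted p = 0.00498) and 2.59, 2.50 and 2.31 for the others (adjusted p = 0.00287, 0.0218 and 0.0165). For biglycan it was 1.82 (adjusted p = 0.00878) with the brightest probe set, and for lumican 2.99 (adjusted p = 0.00954). Nearly all of it lay in the controls, 1 array per age, for the brightest probe set of decorin and for lumican. Older minus young was -2.73 and -2.96 there, against 0.089 and 0.037 over the later weeks. For biglycan the difference between adult and young rats was 1.63 (adjusted p = 0.0144), where 2.57% of all probe sets were called. All older and all adult arrays after fracture lay above their own control for these genes, while the young arrays did so in 3 of 5 weeks for the brightest probe sets of decorin and biglycan and in 4 of 5 for lumican. For the other 3 probe sets of decorin the young arrays did so in 4, 4 and 5 of 5 weeks. Groups of 1 array per age and time could not be searched for outlying samples.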

How the results depend on the processing

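Of 804 values of single genes under other settings, 718 kept their direction and their side of the threshold, 37 lost the call, 29 gained it and 20 changed sign. The 24 settings also held the methods' t-test and other rankings of like genes, which gave counts only and are not among these values. The number of arrays limits these tests, and the cause of a changed call was not tested. The F test called 4 genes, and 0 to 5 with 1 age left out (26 to 2038 of all probe sets, against 2309). The counts called higher than 0 time, 5, 6, 6, 1 and 0 over the 5 later times, ranged over 0 to 6, 1 to 6, 0 to 6, 0 to 4 and 0 to 4 with 1 age left out (limma). Without the adult or the older arrays far fewer genes of all were called too, 0 and 7 probe sets higher at 2 weeks against 829 with all 3 ages. Without the young arrays more of all were called at 4 and 6 weeks too, 725 and 680 against 289 and 49. At 6 weeks Comp was called with a floor of 1, an offset of 50, probe sets limited to a mean signal of 200, or without the young 4- and 6-week arrays (1 gene each). Of the probe sets tested, 132, 129, 218 and 115 were called higher in these settings. Comp was also called lower at 6 than at 2 weeks (1 gene) with that floor, offset or limit and with arrays scaled to their median (85, 97, 88 and 64 probe sets in all). With the limit of 200, 1 gene (Comp) was called higher in older rats at 4 and 6 weeks, and 5 in the change from the own control (67 and 267 of the 4108 probe sets). With the mean of all probe sets of a gene 2 were called there, decorin and lumican, and biglycan lost its call.

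The methods' t-test on log2 signals called 4, 4, 4, 1 and 0 genes over the 5 later times at an unadjusted p of 0.05 (the methods give no threshold for this test), and 1, 1, 1, 0 and 0 after Benjamini-Hochberg adjustment. Of all probe sets it called 1127, 1077, 793, 455 and 307 higher, and 181, 50, 7, 0 and 0 after adjustment. On linear signals it called 5, 6, 4, 0 and 0, and 3, 0, 0, 0 and 0 after adjustment. Of all probe sets it called 1261, 1156, 881, 532 and 353 there, and 287, 2, 0, 0 and 0 after adjustment. Between older and young rats it called 1 gene on either scale at 1 and 2 weeks, and 1 on log2 and 2 on linear signals at 4 and 6 weeks, and 0 after adjustment. Before adjustment 115 of all probe sets were called on log2 and 121 on linear signals at 1 and 2 weeks. At 4 and 6 weeks 454 and 497 were. By Spearman rank 4 of the 18 nearest genes stayed among the nearest 3, and with age means taken out 13 did. Scaling to the median moved the median log2 change of all probe sets at 0.4 weeks to -0.02, against -0.13 as deposited, and that of the 6 genes to 2.05, against 1.91.

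The values that changed sign were small or not called. Scaled to the median, the difference of older and young rats at 1 and 2 weeks was 0.080 for lumican, and the late minus early difference was -0.053 for fibromodulin, -0.056 for biglycan and -0.033 for lumican. With the mean of its probe sets decorin at 1 and 2 weeks was -0.27, and without the young 4- and 6-week arrays decorin over the later weeks was -0.029. With 1 age left out, the change of fibromodulin at 4 weeks lay between -0.076 and 1.26 and that of aggrecan at 6 weeks between -0.60 and 4.09. With 1 week left out, older minus young at 1 and 2 weeks lay between -0.15 and 0.67 for aggrecan, -0.17 and 0.50 for Comp, -0.14 and 0.15 for decorin, and -0.33 and 0.29 for lumican. At 4 and 6 weeks it lay between -0.032 and 0.83 for decorin. The late minus early difference lay between -0.33 and 0.69 for fibromodulin, -0.041 and 0.82 for decorin, and -0.11 and 0.51 for lumican. Over the later weeks the difference lay between -0.10 and 0.20 for decorin and between -0.025 and 0.13 for lumican. The change from the own control was called for 3 to 4 genes with 1 week left out, and decorin, biglycan and lumican were among them each time.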
